A study of Homo sapiens with 6 samples.

Results

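The 10 genes CDK1, CCNB1, CCNA2, AURKA, AURKB, PLK1, BUB1, CDC20, BIRC5 and TOP2A encode mitotic kinases, their cyclins and proteins of the spindle checkpoint and of chromosome segregation. They were chosen for what they do and not by a measured value, with earlier results of these data known. All 10 were measured. For each gene, the intervals within 5 kb of 1 given transcription start site on hg19 were taken from 4 peak lists. These held 25 of 50585 control H3K4me3 intervals, 30 of 53454 metformin H3K4me3 intervals, 0 of 85579 control H3K27me3 intervals and 0 of 85952 metformin H3K27me3 intervals. The lists come from chromatin immunoprecipitation sequencing of H1299, an established human lung cancer cell line, untreated or given 5 mM metformin, a biguanide drug used against type 2 diabetes. Each mark and condition had 1 library, so no value below has a replicate error and no test between conditions was possible. The time of treatment is not given in the sources used here, the 2 input libraries were not analysed here, and the read depth of each library is unknown because the lists hold no counts.

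Entry into mitosis is driven by CDK1 bound to cyclin A2 or cyclin B1, with Polo-like kinase 1 and the Aurora kinases acting on centrosomes, spindle and chromosomes. BUB1 belongs to the checkpoint that holds back the anaphase-promoting complex until every chromosome is attached, and CDC20 is the activator of that complex. These genes are transcribed late in the cell cycle, under repression by the DREAM complex in resting cells and activation by B-MYB and FOXM1 in dividing ones. H3K4me3, trimethylation of lysine 4 of histone H3, marks active promoters and typically lies on the nucleosomes beside the start site, which is itself often low in nucleosomes. H3K27me3 is laid down by Polycomb repressive complex 2 and marks silenced genes.

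All 10 genes carried H3K4me3 at the start of the gene in both lists, mainly on the transcribed side. The interval that covered the start site, or was the first one downstream of it, was between 2329 bp (TOP2A) and 4752 bp (CDK1) wide in control, with a median of 3252 bp. After metformin the range was 2296 bp (TOP2A) to 5136 bp (BUB1), with a median of 3401 bp. These intervals were wide for their lists, whose median widths were 517 bp in control and 524 bp after metformin. The lists consist largely of short intervals, and main intervals at other start sites were not located for comparison. Such width is thus not shown to be particular to these genes. At most 11.0% of the control list and 13.1% of the metformin list was wider than any of the 10. Each of them joined 7 to 14 sub-peaks in either condition. The peak values, read as −log10 q and set by the authors' caller, ran from 20.5 (TOP2A) to 64.6 (CCNB1) in control and from 29.4 (CCNA2) to 68.7 (CCNB1) after metformin. They rank peaks within a list and are not levels of the mark. CCNB1 was thus first of the 10 in both lists.

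**Figure D1:**
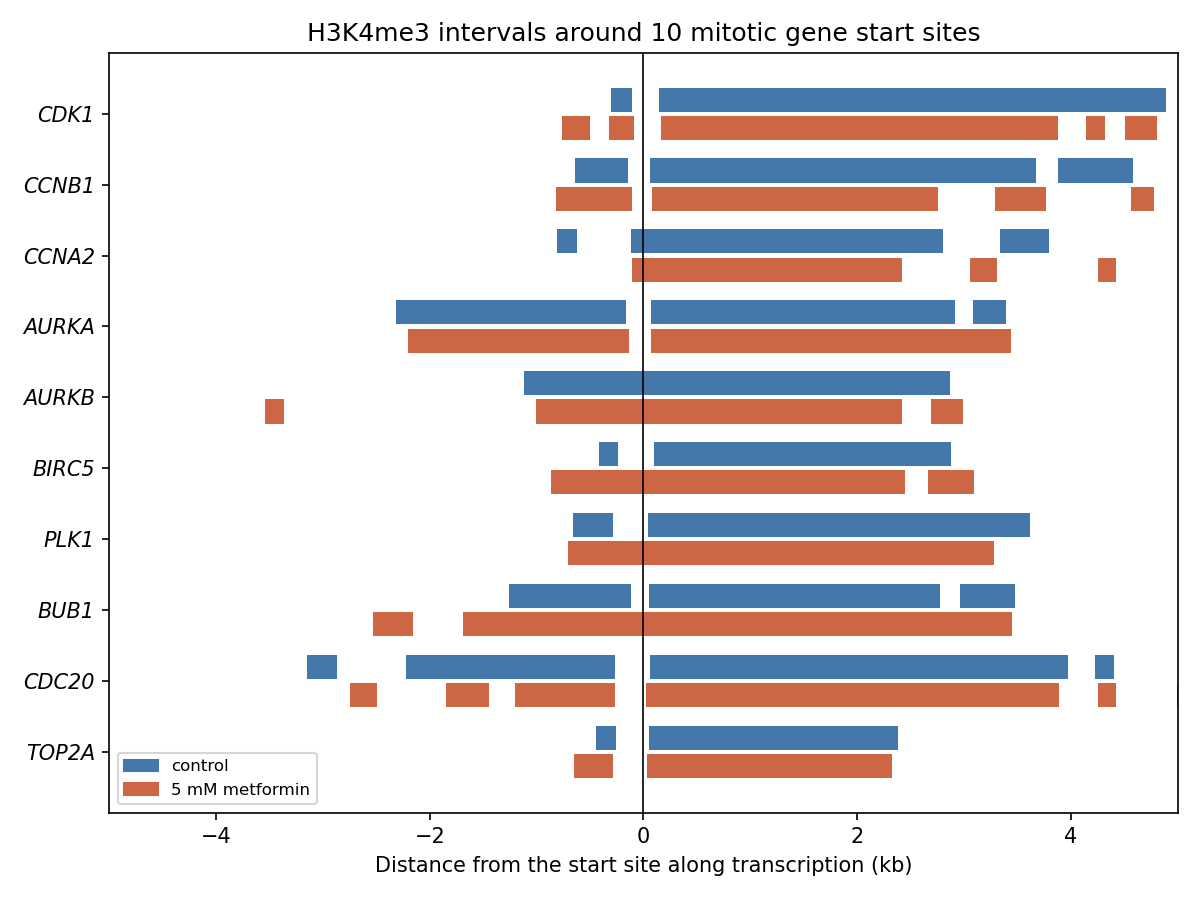
H3K4me3 intervals (bars) within 5 kb of the start sites of the 10 genes, in control (blue) and metformin (orange) cells, 1 library each. The x axis is the distance in kb along the direction of transcription, so the gene body lies to the right of the line at 0. The widest bar of every gene lies mostly to the right of the start site, and 8 genes in control and 5 after metformin have a gap there.

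By position, the coverage was similar between conditions in the first kilobases downstream and differed at the start site, upstream of it and farther downstream. From 150 to 2350 bp after the start site, sampled every 50 bp, all 10 genes lay under a control interval, and from 200 to 2300 bp all 10 lay under a metformin interval. At the start site itself 2 genes were covered in control (CCNA2 and AURKB) and 5 after metformin (those and PLK1, BUB1 and BIRC5). At 500 bp upstream the numbers were 6 and 9 of 10, and at 2500 bp downstream 9 and 6 of 10. These positions were picked for their difference, and others went the other way, such as 2950 bp downstream with 4 genes in control and 7 after metformin, and 2000 bp upstream with 2 and 1.

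**Figure D2:**
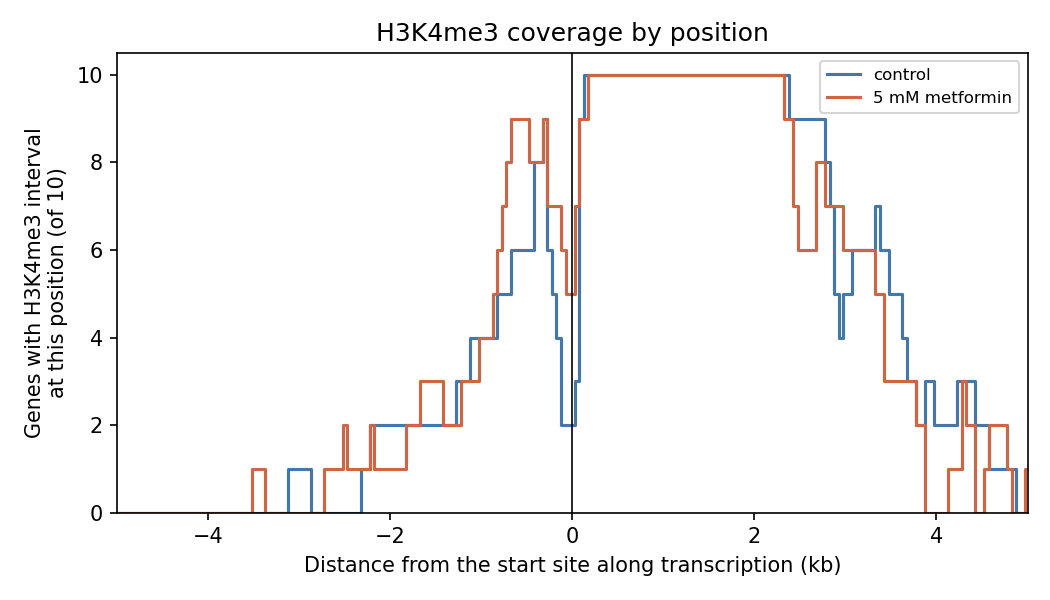
Number of the 10 genes whose position lies under an H3K4me3 interval (y axis), every 50 bp from 5 kb upstream to 5 kb downstream of the start site (x axis, kb), in control (blue) and metformin (orange) cells. Both lines reach 10 downstream and dip at the start site, to 2 in control and 5 after metformin.

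The gap at the start site lay mostly over the bases just before the start, except in CDK1, where more of it lay after the start in both lists. RefSeq gives CDK1 2 starts 147 bp apart, and its gap was measured from the given start only. In control the gap was 171 to 334 bp long in 8 genes, with a median of 275 bp. Its downstream edge lay 47 bp (PLK1) to 141 bp (CDK1) after the start site. After metformin it was 193 to 316 bp long in 5 genes (CDK1, CCNB1, AURKA, CDC20 and TOP2A). Promoter windows of RefSeq, on GRCh38.p14, were available for 8 of the 10 genes, AURKA and BIRC5 being the others. Each window runs from 250 bp before to 50 bp after a start. Whether a RefSeq start is the same base as the hg19 start used for the intervals was not determined. The 250 bases before the start are shown for 4 genes with a control gap over much or all of this stretch and for CCNA2, which had none. The capitals mark every letter match, on either strand, to the CHR, spelled TTTGAA or in a variant form CTTGAA, and to the box CCAAT. Other spellings of the CHR were not searched, and a match need not be a working element. On the opposite strand TTTGAA reads TTCAAA, while CTTGAA reads TTCAAG and the box reads ATTGG. The CHR is the cell cycle genes homology region bound by DREAM, and CCAAT is the box bound by NF-Y.
CCNB1, chr5:69166900-69167149, plus strand: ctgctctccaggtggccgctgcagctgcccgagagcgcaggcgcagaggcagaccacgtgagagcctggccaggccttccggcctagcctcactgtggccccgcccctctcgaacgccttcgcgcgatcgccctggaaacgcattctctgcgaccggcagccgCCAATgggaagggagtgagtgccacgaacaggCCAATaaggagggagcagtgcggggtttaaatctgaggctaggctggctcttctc
PLK1, chr16:23678639-23678888, plus strand: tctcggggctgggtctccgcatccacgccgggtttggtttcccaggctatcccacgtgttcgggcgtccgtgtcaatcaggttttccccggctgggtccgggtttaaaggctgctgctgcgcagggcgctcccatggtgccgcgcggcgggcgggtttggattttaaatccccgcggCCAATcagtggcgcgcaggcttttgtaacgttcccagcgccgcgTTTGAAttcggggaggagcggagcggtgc
CDC20, chr1:43358731-43358980, plus strand: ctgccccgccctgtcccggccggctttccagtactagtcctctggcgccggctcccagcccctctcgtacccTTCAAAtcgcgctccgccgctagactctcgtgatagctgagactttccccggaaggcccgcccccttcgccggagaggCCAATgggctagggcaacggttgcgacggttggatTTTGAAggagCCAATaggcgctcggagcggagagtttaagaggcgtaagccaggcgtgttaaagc
TOP2A, chr17:40417897-40418146, minus strand: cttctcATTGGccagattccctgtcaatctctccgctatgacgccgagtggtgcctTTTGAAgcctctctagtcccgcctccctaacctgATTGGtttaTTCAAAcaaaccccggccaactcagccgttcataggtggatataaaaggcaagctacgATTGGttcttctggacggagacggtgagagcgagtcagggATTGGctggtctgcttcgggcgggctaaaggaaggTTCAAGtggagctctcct
CCNA2, chr4:121823884-121824133, minus strand: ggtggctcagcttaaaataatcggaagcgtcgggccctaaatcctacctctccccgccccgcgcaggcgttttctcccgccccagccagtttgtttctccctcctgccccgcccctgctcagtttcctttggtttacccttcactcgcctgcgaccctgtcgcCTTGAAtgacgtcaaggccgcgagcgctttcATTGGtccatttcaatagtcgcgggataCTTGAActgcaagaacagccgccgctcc

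The promoters shared the CCAAT box. It was found in the 300-base windows of all 8 genes with a window, against 34.6% of all 35116 windows of the table. The AURKB starts of that table lie 326 and 350 bp inside the outer end of the gene. Both AURKB windows thus lie within the gene by that end. TOP2A held 4 copies, CCNB1, BUB1 and CDC20 held 2 each, and CCNA2, PLK1 and AURKB 1 each. CDK1 has 2 RefSeq starts that lie 147 bp apart, with 1 and 2 copies. In 5 of 8 genes (CDK1, CCNA2, PLK1, CDC20 and TOP2A) the window also held TTTGAA or CTTGAA on either strand, against 23.9% of all windows. Both kinds together were found in these 5 genes and in 9.23% of all windows. A TTTGAA began 29 bases before the start of PLK1 and 65 before that of CDC20, and a CTTGAA 28 before that of CCNA2. At the second CDK1 start a TTTGAA began 13 bases before, in the stretch chr10:60778448-60778477 (plus strand), ccctttagcgcggtgagTTTGAAactgctc. Those are the matches nearest before each start, and several windows held more. CDC20 had another TTTGAA 178 bases before its start, and CCNA2 another CTTGAA at 87. The second CDK1 start had others 69 bases before it and, on the opposite strand, just after it, and the first had 1 at 161. In TOP2A, TTTGAA lay 194 bases before the start and, on the opposite strand, 151 before, and CTTGAA on that strand at 18. The letters of the E2F sites searched, TTTGGCGC, then TTTCCCGC and also TTTGGCGG, were in none of the 8 genes' windows and in 2.89% of all windows. The share of C and G in the 10 windows of these 8 genes had a median of 63.2%, against 58.7% over the table. It ran from 47.7% (first CDK1 start) to 66.3% (BUB1), and TOP2A, at 55.7%, was also below the table's median. The 2 windows of CDK1 overlap, as do those of AURKB. Letter matches of this kind describe the sequence and do not show binding.

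CDK1 (start chr10:62538089, plus strand), the kinase that drives mitosis, had the widest control interval of the 10. It spanned chr10:62538230-62542981, from 141 to 4892 bp after the start, and 1.17% of the control list was wider. Its value was 47.9. A short control interval of 201 bp (value 12.6) lay upstream, between 306 and 106 bp before the start. After metformin the main interval spanned chr10:62538251-62541968, which is 3718 bp (value 33.4). It ended 1013 bp earlier, and short intervals of 181 and 303 bp lay beyond its end. The upstream interval was 238 bp wide, and another of 266 bp lay before it. CDK1 was therefore covered over a shorter single stretch after metformin, with the distal part broken into pieces.

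CCNB1 (start chr5:68462837, plus strand) encodes cyclin B1, the mitotic partner of CDK1. The control interval chr5:68462895-68466516 was 3622 bp wide (value 64.6) and the metformin interval chr5:68462920-68465592 was 2673 bp (68.7), ending 924 bp earlier. Upstream, the control list had 502 bp (value 11.1) and the metformin list 705 bp (22.8). Within 5 kb on either side, intervals covered 4821 bp and 4067 bp in turn, a ratio of 0.844. CCNA2 (start chr4:122744943, minus strand) encodes cyclin A2, the partner of CDK1 and CDK2. Its interval ran across the start site in both lists, at chr4:122742134-122745059 (2926 bp, value 29.1) in control and chr4:122742523-122745053 (2531 bp, 29.4) after metformin. CCNA2 had the smallest ratio of covered length of the 10 genes, 2943 bp after metformin against 3579 bp, or 0.822 times. Both cyclin genes thus had less covered length in the metformin list.

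AURKA (start chr20:54967351, minus strand) encodes the Aurora kinase of centrosomes and spindle poles. Wide intervals lay on both sides of its start. Downstream, chr20:54964438-54967280 in control (2843 bp, value 59.8) compared with chr20:54963910-54967280 after metformin (3371 bp, 50.1). The metformin interval took in the place of a separate control interval of 311 bp. Upstream the control width was 2159 bp and the metformin width 2069 bp, and the gap between the sides was 230 and 204 bp. AURKB (start chr17:8113918, minus strand) encodes the Aurora kinase of the chromosomal passenger complex at centromeres. Its interval crossed the start in both lists, at chr17:8111044-8115040 in control (3997 bp, value 42.0) and chr17:8111493-8114923 after metformin (3431 bp, 43.3). The 2 RefSeq starts of AURKB with a promoter window lie 326 and 350 bp inside the outer end of the gene in that table, and values at another AURKB start were not computed. BIRC5 (start chr17:76210277, plus strand) encodes survivin, another subunit of the passenger complex. In control it had an interval of 2781 bp (chr17:76210376-76213156, value 46.0) and, 334 bp upstream of it, a short one of 177 bp (3.57). After metformin 1 interval, chr17:76209407-76212729 (3323 bp, value 46.3), covered the start site and reached 870 bp upstream. A short one of 433 bp (3.83) lay beyond its downstream end. With the short intervals counted, BIRC5 had 2958 bp covered in control against 3756 bp after metformin, or 1.27 times, the largest ratio of the 10.

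PLK1 (start chr16:23690143, plus strand) encodes Polo-like kinase 1, which acts in centrosome maturation and mitotic exit. In control its interval chr16:23690190-23693766 (3577 bp, value 42.5) was separated by 327 bp from a short upstream interval of 376 bp (4.10). After metformin both lay under 1 interval, chr16:23689433-23693429 (3997 bp, 43.3). The total covered length was nearly equal (3953 bp in control, 3997 bp after metformin), and the metformin interval ended 337 bp earlier. BUB1 (start chr2:111435684, minus strand), the checkpoint kinase of the kinetochore, had the largest difference in base pairs. Control intervals of 517, 2729 and 1140 bp, the last 2 on either side of a 171 bp gap, were replaced by 1 metformin interval of 5136 bp at chr2:111432236-111437371. Only 0.992% of the metformin list was wider than it. The BUB1 values were 46.6 (downstream) and 51.6 (upstream) in control and 33.1 in the metformin list. Its covered length of 5520 bp after metformin was 1.26 times the 4386 bp of control.

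CDC20 (start chr1:43824626, plus strand) encodes the activator of the anaphase-promoting complex. Its downstream interval was among the most alike of the 10, at chr1:43824684-43828598 in control (3915 bp, value 47.8) and chr1:43824650-43828515 after metformin (3866 bp, 65.4). Upstream of CDC20, a control interval of 1956 bp was matched by intervals of 400 and 938 bp after metformin. Farther downstream, just inside the 5 kb limit, a metformin interval of 4076 bp began 4994 bp after the start. In control an interval ended at 4402 bp and the next one began just outside the limit, at 5158 bp. Intervals of 183, 205 and 2482 bp, the last from 6555 to 9036 bp, lay in control where the metformin interval ran from 4994 to 9069 bp. RefSeq places the start of ELOVL1, on the opposite strand, 9.03 kb downstream of CDC20. TOP2A (start chr17:38574202, minus strand) encodes topoisomerase II alpha, which untangles sister chromatids. It had the narrowest downstream interval in both lists, chr17:38571823-38574151 in control (2329 bp, value 20.5) and chr17:38571878-38574173 after metformin (2296 bp, 32.4). Short intervals of 193 and 366 bp lay upstream of TOP2A.

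Between the conditions, the start-site interval of each gene (the one over or nearest to the start) was overlapped by the other list in 10 of 10 genes. Over the whole lists this held for 77.3% of control and 67.3% of metformin intervals, and for intervals of 2 kb or more for 100% of control (7403 of 7403) and 100% of metformin ones (8771 of 8772, rounded). Presence in both lists is therefore what intervals of that width did in general. The CDK1 start-site interval is the short upstream one, to which the shares over the whole lists apply. The length under H3K4me3 within 5 kb of the 10 starts was 42.8 kb for control and 42.6 kb for metformin. The shared length was 37.8 kb, which is 88.3% of the control and 88.6% of the metformin length. Shared length per gene ran from 70.7% (CCNA2) to 99.3% (BUB1) of the control length, and from 73.2% (BIRC5) to 95.5% (AURKA) of the metformin length.

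The total hid differences in both directions. Covered length was larger after metformin in 5 genes (AURKA, PLK1, BUB1, BIRC5 and TOP2A) and smaller in 5 (CDK1, CCNB1, CCNA2, AURKB and CDC20). Among 10354 windows of the same 10 kb size, centred on joined H3K4me3 regions of 2 kb or more, 64.9% had more covered length after metformin and 35.0% less. The median ratio of metformin to control was 0.995 over the 10 genes (0.822 to 1.27) and 1.07 over those windows, which are centred on the regions and not on start sites. A ratio of at least 25% more was reached by 2 genes of 10 (BUB1 and BIRC5) and by 21.4% of the windows. With windows of 1 kb on either side in place of 5 kb, 8 of 10 genes had more covered length after metformin. At that size 41.7% of windows around the joined regions had more, 21.1% had less and the others were equal. Such windows lie in the middle of a region, whereas those of the genes take in the gap at the start. In width, only 4 genes (CDK1, CCNA2, CDC20 and TOP2A) had a start-site interval that matched exactly 1 interval of the other list. Of these, 0 were wider after metformin by 25% or more, against 32.2% of all such pairs and 9.30% of those averaging 2 kb or more. At 1.1 times the count was 1 of 4, the short upstream interval of CDK1 (1.18 times), against 44.9% and 26.2%. To place all 10 genes, each downstream interval was also paired with the one it overlapped most. BUB1 (1.88 times) alone was then wider by 25% or more, 1 of 10, against 29.7% of all such pairs averaging 2 kb or more. CCNB1 (0.738 times) and CDK1 (0.782 times) were narrower by 20% or more, 2 of 10 against 12.5%. Of the 10 genes, 6 were narrower by any amount, against 39.2% of those pairs.

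**Figure D3:**
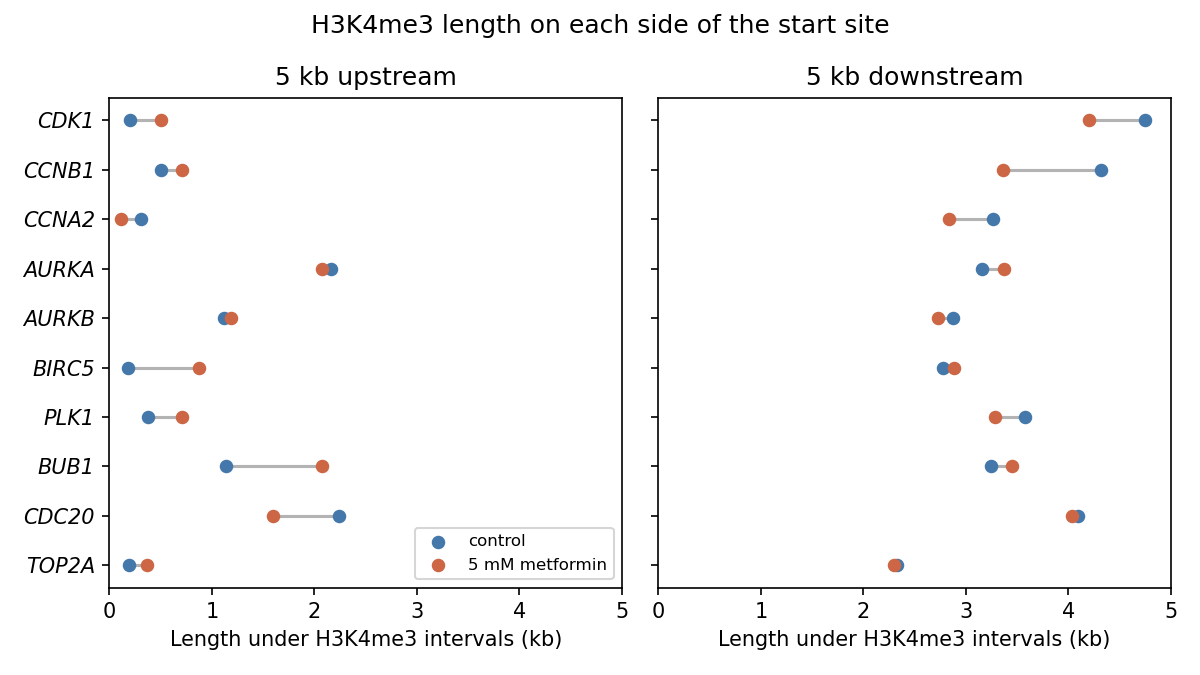
Length under H3K4me3 intervals (x axis, kb) in the 5 kb upstream (left) and the 5 kb downstream (right) of each start site, in control (blue) and metformin (orange) cells, 1 library each, joined by a line per gene. Metformin points lie to the right of control in 7 of 10 genes upstream and to the left in 7 of 10 genes downstream.

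Summed over the 10 genes, the metformin list had more length upstream of the start and less downstream. Upstream, the 10 genes together had 8.42 kb under control H3K4me3 and 10.2 kb under metformin H3K4me3, with more in 7 genes and less in 3 (CCNA2, AURKA and CDC20). Downstream, the lengths were 34.4 kb and 32.5 kb, with less in 7 genes and more in 3 (AURKA, BUB1 and BIRC5). Both differences together were found in 5 genes (CDK1, CCNB1, AURKB, PLK1 and TOP2A). CCNA2 and CDC20 had less on both sides, BUB1 and BIRC5 had more on both, and AURKA had less upstream and more downstream. BUB1 (931 bp) and BIRC5 (693 bp) had the largest upstream gains. The largest downstream differences, metformin minus control, were -957 bp (CCNB1), -550 bp (CDK1) and -436 bp (CCNA2). The difference in each sum thus rested mainly on a few genes and not on the set as a whole. Other start sites were not located on hg19, so no share over all promoters stands beside these counts per side. The downstream end of the interval over or after the start lay nearer the start in the metformin list in 8 of 10 genes, by 55 bp (TOP2A) to 1013 bp (CDK1). AURKA and BUB1 were the exceptions, with ends 528 and 669 bp farther out. Among all pairs of largest mutual overlap averaging 2 kb or more, 39.5% of interval ends lay inside the control interval after metformin. That background counts both ends of an interval, without regard to transcription. This count was made after the values were seen, and with intervals within 1 kb of each other merged it was 5 of 10. Beyond the main interval, the metformin list held further intervals of 163 to 481 bp in CDK1, CCNB1, CCNA2, AURKB, CDC20 and BIRC5, besides the 4076 bp one near the limit at CDC20. The control list held such intervals, of 180 to 697 bp, in CCNB1, CCNA2, AURKA, BUB1 and CDC20.

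Of the 8 genes with a gap at the start in control, 3 (PLK1, BUB1 and BIRC5) were wholly covered there after metformin, and 5 kept a gap. No gene had a gap in the metformin list alone. Over the whole control list, 41.0% of gaps of the same 171 to 334 bp beside an interval of 2 kb or more were wholly covered by the metformin list. For metformin gaps covered by the control list the share was 27.5%. The 3 genes of 8 are thus near the background share. Joining intervals within 300 bp of each other left a gap in 4 genes in control and 1 after metformin, since 4 gaps in each list are shorter than that.

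Some of the 10 genes share their promoter region with a neighbour. Neighbours were searched only among starts with a RefSeq promoter window, a set that lacks AURKA and BIRC5, so others may have been missed. Measured from the gene ends of RefSeq on GRCh38.p14, 3 of the 10 have a gene on the opposite strand that starts close upstream. These are AURKA (CSTF1, 164 bp), BUB1 (the uncharacterised LOC105373554, 149 bp) and CDC20 (the divergent transcript CDC20-DT, 308 bp). In these 3 genes H3K4me3 lay over 1140 to 2235 bp of the upstream 5 kb in control and over 1591 to 2071 bp after metformin. In the other 7 the control range was 177 to 1122 bp (median 310 bp) and the metformin range 110 to 1184 bp (median 705 bp). AURKB had the most among those 7 in both lists, and BUB1 exceeded it by little in control (1140 against 1122 bp). The grouping was made after the values were seen, and reads of the 2 promoters of such a pair cannot be told apart in interval lengths.

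None of the 10 genes had an H3K27me3 interval within 5 kb in either list. Among the 10 kb windows around H3K4me3 regions of 2 kb or more, 5.91% held control H3K27me3 and 7.41% metformin H3K27me3, so 0 of 10 is close to what such windows gave in general. BUB1 came nearest to the limit. A control H3K27me3 interval, chr2:111440695-111441323 (629 bp, value 1.36), began 5011 bp upstream of its start, and the nearest metformin one (274 bp, 1.77) began 6804 bp upstream. BUB1 also had the most H3K27me3 within 50 kb, with 28.1 kb over 11 control and 21.4 kb over 13 metformin intervals. In the other genes the 50 kb on either side held at most 6.15 kb (AURKA) in control and 7.13 kb (PLK1) after metformin.

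**Figure D4:**
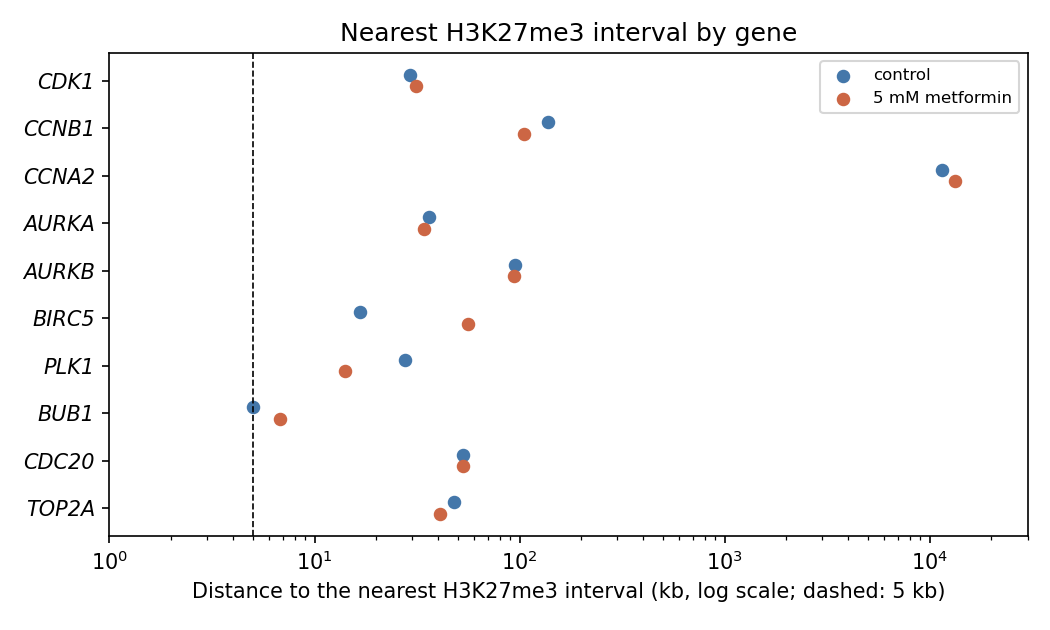
Distance from each start site to the nearest H3K27me3 interval (x axis, kb, log scale) in control (blue) and metformin (orange) cells, 1 library each, with the 5 kb limit dashed. All points lie to the right of the limit, BUB1 nearest to it and CCNA2 farthest.

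The nearest H3K27me3 interval lay at a median distance of 42.0 kb (control) and 46.7 kb (metformin). That of PLK1 was 27.5 kb away in control but 14.1 kb after metformin, and that of BIRC5 16.6 and 56.0 kb. Each of those distances rests on 1 short interval (247 to 742 bp). CCNA2 stood apart, with its nearest H3K27me3 interval 11.5 Mb away in control and 13.3 Mb after metformin. Within 10 Mb on either side of it the lists held 154 control and 151 metformin H3K4me3 intervals and no H3K27me3 interval. Sparse H3K27me3 extended over a long stretch of that chromosome. Between 90 and 190 Mb of chromosome 4 there were 73 control and 85 metformin H3K27me3 intervals, against 2434 and 2429 in its first 60 Mb. Per Mb, that is 0.73 and 0.85 against 40.6 and 40.5. H3K4me3 differed less between the same stretches, with 7.72 control and 8.02 metformin intervals per Mb against 13.1 and 13.8.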

How the data were processed

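Chromatin was cut with micrococcal nuclease and precipitated with antibodies against each mark, per the labels' protocols. The submitters' processing notes name Trimmomatic 0.38, Bowtie, MACS2 and the build hg19 (GRCh37). Options and the background library used are not given in those sources. The authors deposited 1 peak list per library, with no header and 1 value per line, which was read as −log10 q from its range. It starts at 1.31 for H3K4me3 (q = 0.05 is 1.30) and near 1 for H3K27me3 (q = 0.1). No test was used, and the inputs were not analysed here. Alternatives varied the window, value limit, merging, list length, pairing and fold.

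Lines with the same interval were joined, keeping the highest value, and coordinates were written 1-based. Start sites on hg19 were given with the gene list. Strands came from RefSeq, and for AURKA and BIRC5 from general knowledge. Overlap means at least 1 bp. The overlap and pairing code was tested on a copy of the control H3K4me3 list with intervals removed, shifted and widened. No interval was split in that copy, so pairing of split intervals was not tested. The members and lists were chosen with earlier results of these data known, and all 10 members are named. Exons, introns and other pathway genes were not analysed here, since the gene table is on GRCh38.p14. Python 3.11.15, pandas 2.3.3, numpy 2.4.6 and matplotlib 3.10.9 were used.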

Additional observations from a re-analysis of the deposited data

How the results depend on the processing

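No paired analysis was possible because each mark was measured in 1 library per condition, and for the same reason leaving out a replicate was not run. All 10 genes had H3K4me3 in both lists under every window, value limit and merging tried. H3K27me3 was near 1 gene in each list (BUB1) with a window of 10 kb, and near 0 genes under the other settings. Covered length, 42.8 kb in control and 42.6 kb after metformin, was 14.6 and 16.5 kb with a window of 1 kb, 48.3 and 49.95 kb with 10 kb, 40.6 and 39.2 kb at a value of 5 or more, and 48.0 and 50.2 kb with intervals within 1 kb merged. With lists of equal length the metformin value was 42.4 kb. Which condition had more in total thus depended on these choices. The number of genes with more covered length after metformin, 5, was 8 with a window of 1 kb and 5 to 7 otherwise. Genes with a start-site interval wider by 25% or more, 0 in the main count, numbered 1 with merging. They also numbered 1 with pairs of largest mutual overlap and 1 with the first downstream interval. At the lower fold of 1.1 the main count was 1. In pairs of largest mutual overlap, 1 start-site interval (CCNB1) was narrower by 20% or more. Downstream ends nearer the start after metformin, 8, were 5 with merging within 1 kb and 7 or 8 otherwise. Gaps at the start, 8 and 5, were 4 and 1 with merging within 300 bp. Settings for pairs of largest mutual overlap, downstream ends and gaps were chosen after seeing the data. The causes of these shifts were not tested. Depth is unknown, so its part in interval length was not tested.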
